A study of Caenorhabditis elegans with 18 samples.

Results

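The comparison described here asks how the effect of losing lin-35 on transcript levels differs between first-stage larvae (L1) and embryos of Caenorhabditis elegans. The strain effect at a stage is the log2 level in lin-35(n745) minus that in the laboratory wild type N2. The quantity reported is the strain effect at L1 minus the strain effect in embryos, called the difference below. A positive difference means that lin-35(n745) stood higher against N2 at L1 than in embryos, and a negative one that it stood lower. The study hybridised 18 Affymetrix arrays, 3 in each of 6 groups of 2 strains and 3 stages, and the difference uses 12 of them. These are 3 arrays each of lin-35(n745) L1 larvae, N2 L1 larvae, lin-35(n745) embryos and N2 embryos. The 6 arrays of fourth-stage larvae entered only the shared estimate of the spread and the choice of a probe set for each gene. All 22548 probe sets other than the array's controls were tested, and 17118 genes were each followed through 1 probe set. The animals were whole hermaphrodite populations synchronised by stage and grown at 20 °C on plates with the bacterium OP50, and the replicates were grown and isolated independently according to the design text. The lin-35(n745) groups at both stages carry the same allele, known as a premature stop, in every cell of the body, and no other mutation is named in the labels.

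LIN-35 is the only worm protein of the retinoblastoma family. With E2F and DP proteins and the MuvB subunits it forms the DREAM complex, which sits at promoters and represses transcription of cell cycle genes and, in somatic cells, of genes that belong to the germ line. In embryos most cells are dividing or have just divided and still hold RNA that the mother loaded into the egg, whereas most somatic cells of an L1 larva have stopped dividing and its germ line consists of a few primordial cells.

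The arrays matched their stage labels. In N2, 55 of 58 embryonic patterning genes were lower at L1 than in embryos, and 26 of 163 collagen and cuticle genes were, against 7246 of all 17118 genes. Array medians lay between 6.257 and 6.3 in lin-35(n745) L1 larvae, between 6.206 and 6.25 in N2 L1 larvae, between 6.359 and 6.388 in lin-35(n745) embryos and between 6.316 and 6.389 in N2 embryos. The lin-35(n745) L1 arrays were the least alike: they correlated at 0.9863 to 0.9894 over probe sets, against 0.9948 to 0.9966 in N2 L1 larvae and 0.9952 to 0.9964 in embryos of both strains. In that group 130 genes had a standard deviation of at least 1 log2 unit over the 3 arrays, against 6 in N2 L1 larvae, 0 in lin-35(n745) embryos and 1 in N2 embryos. Replicate 2 was the outlying array for 83 of the 130 and replicate 3 for 42. The standard errors (SE) and p-values below rest on a spread per probe set that all groups share. For such genes they understate the spread of the mutant larvae. The wider spread was not confined to them: the median standard deviation over all probe sets was 0.164 in lin-35(n745) L1 larvae. It was 0.11 in N2 L1 larvae, 0.124 in lin-35(n745) embryos and 0.13 in N2 embryos. In embryos, replicate 1 of both strains stood apart in the hybridisation controls, with 10.55 in lin-35(n745) and 10.23 in N2 for the BioDn 3' control against 12.201 to 12.293 on the other embryo arrays.

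The lin-35 transcript itself gave the first check. It read 6.51, 6.24 and 6.95 on the lin-35(n745) L1 arrays, against 7.84, 7.82 and 7.86 on the N2 L1 arrays. In embryos it read 7.68, 7.75 and 8.22 on the lin-35(n745) embryo arrays, against 9.07, 9.36 and 9.36 on the N2 embryo arrays. At both stages every mutant array lay below every N2 array, and the strain effect was -1.27 at L1 and -1.38 in embryos. The difference, 0.11 log2 units with a 95% interval of -0.34 to 0.56, did not pass the test, so the lin-35 signal gave no sign of unequal loss at the 2 stages beyond that interval.

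The strain effect differed between the stages for 2074 of 22548 probe sets, 9.2% of those tested (limma, Benjamini-Hochberg adjusted p under 0.05), with 1090 higher and 984 lower at L1. Fitted without the arrays of fourth-stage larvae, the count was 1323. Counted by gene, 893 of 17118 had a higher strain effect at L1 (5.22%) and 754 a lower one (4.4%), the shares against which the counts of each gene list are to be read. A difference of at least 1 log2 unit was reached by 255 and 291 of them, and the median difference over all genes was 0.0038 log2 units.

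Most of the 893 genes with a higher strain effect at L1 were raised in the mutant larvae and not detectably changed in the mutant embryos. This held for 519 (58.1%), in a setting where 8.72% of all genes rose at L1 and 6.23% rose in embryos. Their median level was 7.70 in lin-35(n745) L1 larvae, against 6.66 in N2 L1 larvae, and 7.85 in lin-35(n745) embryos, against 7.87 in N2 embryos. The median of this set was thus lower in N2 larvae than in embryos, and that of the mutant larvae was near the embryonic ones. These are medians of a set, and single members differed. F26F2.4 and clec-61, given below, were lowest in embryos. Another 109 rose at both stages and more at L1, 165 fell in embryos alone, where 4.12% of all genes fell, 28 rose at L1 and fell in embryos, and 72 passed the test for the difference with neither strain effect called. Here and below a stage not called is a stage where the test was not passed, not one where the effect was shown to be absent. The 893 genes were picked by a difference that contains both strain effects. An excess of their calls at either stage over the shares of all genes thus follows in part from the selection and is no separate support.

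The 754 genes with a lower strain effect at L1 split nearly evenly. At L1 alone 323 fell (42.8%), where 6.81% of all genes fell at that stage, and 299 rose in embryos alone (39.7%). Median levels of the first kind were 7.53 in lin-35(n745) L1 larvae, against 8.52 in N2 L1 larvae, and 7.94 in lin-35(n745) embryos, against 7.77 in N2 embryos. Those of the second kind were 8.09 in lin-35(n745) L1 larvae, against 8.03 in N2 L1 larvae, and 7.55 in lin-35(n745) embryos, against 6.33 in N2 embryos. The median of this set was thus lowest in N2 embryos and nearer the larval ones in the mutant embryos. Single members differed, such as C49G7.12, given below, which stood far above the larval level in the mutant embryos. Of the others, 42 rose at both stages and more in embryos, 35 fell at L1 and rose in embryos, 11 fell at both stages and 44 had neither effect called.

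**Figure D1:**
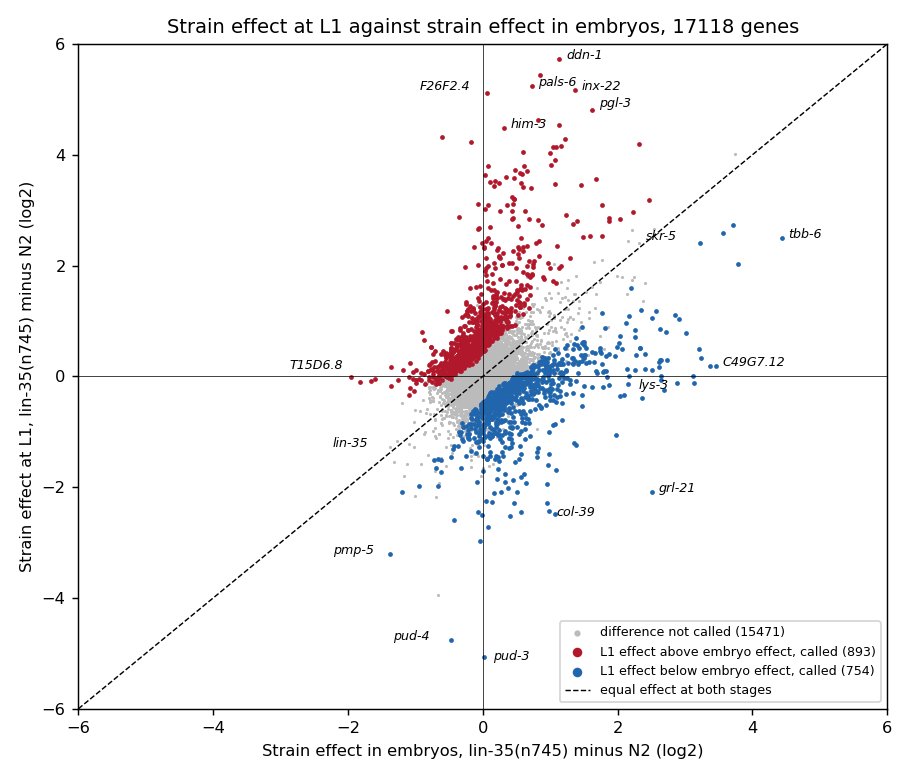
Each point is 1 of 17118 genes, placed by its strain effect in embryos (horizontal axis, log2) and at L1 (vertical axis, log2), with the dashed line marking equal effects. Of the 1647 genes with a called difference, the 893 above the line include effects above 5 log2 units at L1, and 302 of them also have a called effect in embryos, while the 754 below it run both down the vertical axis and out along the horizontal one.

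Germline genes gave some of the largest differences. pgl-3 and pgl-1 encode the core scaffold proteins of P granules, the RNA-rich bodies of germ cells. pgl-3 read 10.42, 10.25 and 10.48 on the lin-35(n745) L1 arrays, against 5.65, 5.48 and 5.58 on the N2 L1 arrays. In embryos it read 8.53, 8.33 and 8.24 on the lin-35(n745) embryo arrays, against 6.68, 6.72 and 6.82 on the N2 embryo arrays. The mutant arrays lay above the N2 arrays at both stages without overlap, and far more so at L1, where the level was 28.1-fold that of N2 against 3.09-fold in embryos. The difference was 3.19 ± 0.14 (SE; adjusted p = 1.25e-11). For pgl-1 the values were 10.82, 10.83 and 11.15 in lin-35(n745) L1 larvae and 7.85, 7.61 and 7.6 in N2 L1 larvae, and 8.41, 8.4 and 8.16 in lin-35(n745) embryos and 7.98, 7.72 and 7.96 in N2 embryos. Again all mutant arrays exceeded all N2 arrays at each stage, with a difference of 2.81 ± 0.16 (SE; adjusted p = 2.54e-10). The mutant larvae held more of both transcripts than embryos of either strain did. In whole animals a change in the number of cells that hold a transcript and a change in the amount per cell cannot be told apart.

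Most other P granule and germ cell genes did not pass the test. Of 42 measured, the strain effect was higher at L1 for 7 (16.7%, against 5.22% of all genes) and lower for 3 (7.14%, against 4.4%), and the median difference was 0.07 against 0.0038 over all genes. Beside pgl-3 and pgl-1, the 7 held rnp-8, which encodes a partner of the germline poly(A) polymerase GLD-2 and had a difference of 1.86 ± 0.16 (SE; adjusted p = 1.42e-07), and the Argonaute gene csr-1, at 1.17 ± 0.18 (SE; adjusted p = 0.000237). csr-1 read 7.05, 7.32 and 6.66 in lin-35(n745) L1 larvae and 5.87, 6.27 and 6.15 in N2 L1 larvae, without overlap, but 6.49, 6.5 and 6.56 in lin-35(n745) embryos and 6.82, 6.78 and 6.73 in N2 embryos, where the mutant arrays were the lower ones and the strain effect of -0.26 did not pass the test. The remaining 3, glh-1, mes-4 and mes-2, had differences of 0.98, 0.75 and 0.59; glh-1 encodes a Vasa-type helicase and the other two encode histone methyltransferases needed in the germ line. The 3 lower ones were the Y-box protein genes cey-2 (-1.01) and cey-3 (-0.65) and the Argonaute gene wago-1 (-0.52), named here after their values were seen. With 1 array left out at a time the number of lower genes ranged from 1 to 4 and the list's median from -0.02, without lin-35(n745) L1 replicate 3, to 0.17, without lin-35(n745) L1 replicate 1.

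Of 36 meiotic chromosome genes measured, 12 had a higher strain effect at L1 (33.3%, against 5.22% of all genes), 0 a lower one and 24 did not pass the test. The median difference was 0.24, and all 12 rose at L1. The largest was him-3, which encodes a HORMA-domain protein of the meiotic chromosome axis. It read 10.69, 10.51 and 10.56 on the lin-35(n745) L1 arrays, against 6.14, 6.34 and 5.83 on the N2 L1 arrays, and 9.32, 9.27 and 9.12 on the lin-35(n745) embryo arrays, against 8.83, 8.82 and 9.12 on the N2 embryo arrays. In N2 the larvae were lower than the embryos on every array, in the mutant they were higher, and the difference was 4.17 ± 0.17 (SE; adjusted p = 4.9e-12). A separate probe set of him-3 gave 4.11. syp-1, which encodes a protein of the central region of the synaptonemal complex, read 9.53, 9.2 and 9.06 in lin-35(n745) L1 larvae and 5.96, 5.54 and 5.9 in N2 L1 larvae, and 9.34, 9.07 and 8.81 in lin-35(n745) embryos and 7.56, 7.67 and 7.6 in N2 embryos. It rose at both stages without overlap and by more at L1, at a difference of 2.0 ± 0.19 (SE; adjusted p = 7.12e-07). htp-1, a further axis gene, differed by 1.66 (adjusted p = 0.000366) and pch-2, which encodes a conserved AAA-ATPase that acts on such axis proteins, by 1.19 (adjusted p = 0.000447).

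Of 48 genes of the small RNA pathways, 8 were higher at L1 (16.7%), 0 were lower and 40 did not pass the test, with a median difference of 0.19. All 8 rose at L1, and hrde-1 led them. It encodes the nuclear Argonaute that carries heritable silencing in the germ line. It read 9.32, 9.37 and 9.38 on the lin-35(n745) L1 arrays, against 6.6, 6.36 and 6.15 on the N2 L1 arrays, and 9.54, 9.48 and 9.35 on the lin-35(n745) embryo arrays, against 8.79, 8.87 and 8.82 on the N2 embryo arrays. The 3 mutant L1 arrays lay within 0.1 log2 units of each other and near the mutant embryos, while the N2 L1 arrays were more than 2 log2 units below the N2 embryos, and the difference was 2.36 ± 0.14 (SE; adjusted p = 9.2e-10). One further probe set of hrde-1 gave 2.66, and another, with a low level, gave 0.17 and did not pass the test. The others named by rule were sid-5 (1.14, adjusted p = 0.00258), which acts in the transport of silencing RNA between cells, rde-1 (0.89, adjusted p = 0.000254), the Argonaute of the response to foreign double-stranded RNA, and drh-1 (0.74, adjusted p = 0.00147), a helicase gene of the RIG-I type. rde-1 rose at L1 by 0.57 and fell in embryos by 0.32, and its L1 and embryo arrays each separated by strain.

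Of 37 oocyte and maternal genes measured, 4 were higher (10.8%) and 5 lower (13.5%) at L1, with a median difference of 0.10 that ranged from 0.02 to 0.12 over the alternatives. The 2 largest were the innexin genes inx-22 and inx-21, whose products join the gap junctions between germ cells and the somatic sheath. inx-22 read 10.85, 10.66 and 10.02 on the lin-35(n745) L1 arrays, against 5.55, 5.09 and 5.38 on the N2 L1 arrays, and 10.01, 10.13 and 9.51 on the lin-35(n745) embryo arrays, against 8.51, 8.27 and 8.77 on the N2 embryo arrays. It was 35.9-fold the N2 level in mutant larvae and 2.58-fold in mutant embryos, with no overlap at either stage and a difference of 3.8 ± 0.27 (SE; adjusted p = 6.7e-09). inx-21 read 9.12, 8.79 and 8.91 in lin-35(n745) L1 larvae and 4.98, 4.81 and 4.61 in N2 L1 larvae, and 8.08, 8.11 and 7.81 in lin-35(n745) embryos and 6.92, 6.81 and 6.99 in N2 embryos. Its difference was 3.05 ± 0.18 (SE; adjusted p = 5.32e-10), and its second probe set gave 1.63. The other higher genes were spn-4, a maternal RNA-binding protein gene (1.22), and glp-1, the Notch receptor gene that keeps germ cells dividing (0.82).

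The 5 lower ones were cbd-1, egg-1, cpg-3, daz-1 and cpg-1, of which cbd-1, cpg-1 and cpg-3 encode proteins of the eggshell and its layers. cbd-1 read 6.27, 6.67 and 6.98 in lin-35(n745) L1 larvae and 7.88, 7.4 and 7.4 in N2 L1 larvae, and 9.84, 9.73 and 10.03 in lin-35(n745) embryos and 9.31, 9.43 and 9.34 in N2 embryos. It fell at L1 and rose in embryos, with a difference of -1.42 ± 0.21 (SE; adjusted p = 0.000115). egg-1, which encodes an oocyte surface protein needed for fertilisation, did the same, with strain effects of -0.68 at L1 and 0.63 in embryos. Sperm genes gave 0 higher and 2 lower of 42 (4.76%, against 4.4% of all genes), and 1 to 5 lower with 1 array left out. They were msp-19 (-1.27) and msp-78 (-1.21), the second called in 12 of 21 alternatives; major sperm protein genes are close copies of one another, and a probe set may read several. Both stood highest on N2 L1 replicate 1, at 7.49 and 7.21, against 6.99 and 6.19 on replicate 2 and 6.71 and 5.76 on replicate 3. On that array the medians of the sperm, oocyte and yolk lists were 6.11, 7.15 and 6.52, the highest of the N2 L1 arrays in each case, against 5.64 to 5.67, 6.44 to 6.57 and 6.06 to 6.17 on the other two. Without it the sperm median was -0.15 instead of -0.27. Whether RNA of adult animals took part in these values was not tested.

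**Figure D2:**
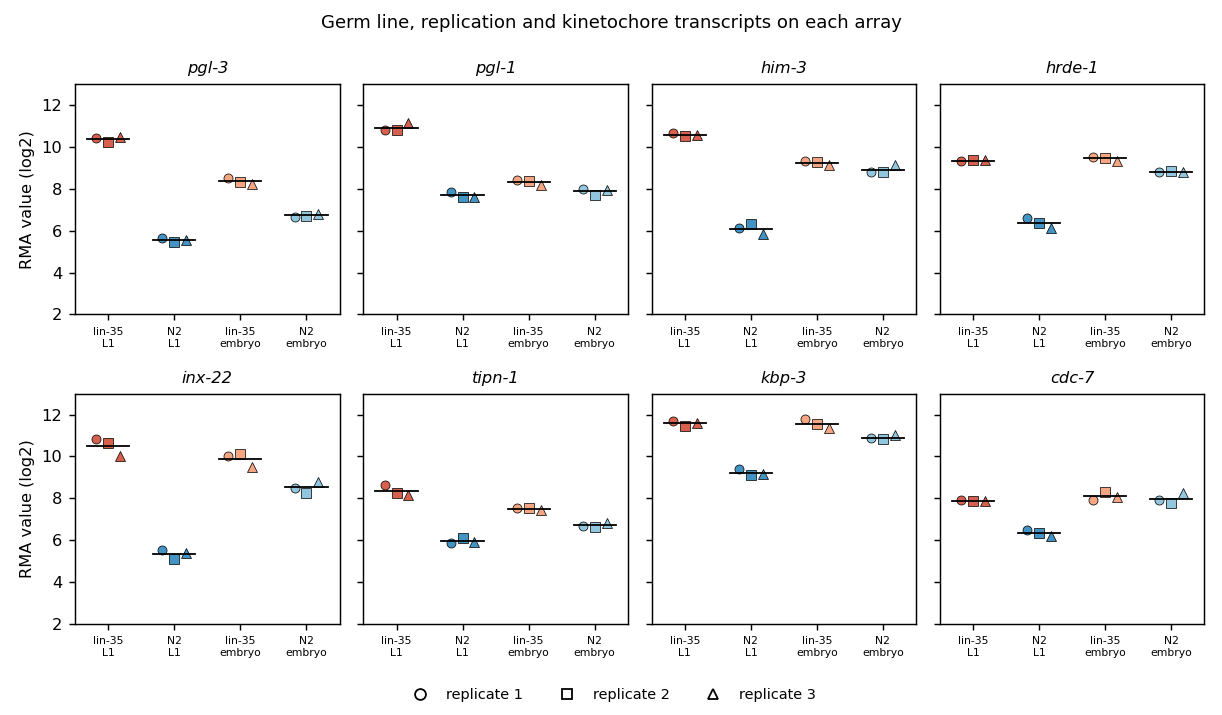
RMA values (vertical axis, log2) of 8 genes on each of the 12 arrays, with lin-35(n745) left of N2 at L1 and in embryos, a marker shape per replicate number and a bar at each group mean. For all 8 the N2 L1 mean is the lowest of the 4 groups, and the mutant L1 arrays lie near or above the embryo arrays.

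Most replication genes were raised in the mutant larvae, and fewer of them in the mutant embryos. Of 47 measured, 35 rose at L1, where 8.72% of all genes rose, and 9 in embryos, where 6.23% rose. The difference was positive for all 47, against 50.6% of all genes. It was called higher for 23 (48.9%, against 5.22% of all genes) and lower for 0. The list's median level was 8.82, 8.71 and 8.87 on the lin-35(n745) L1 arrays, against 8.0, 7.95 and 8.12 on the N2 L1 arrays. In embryos the medians were 9.33, 9.45 and 9.29 in lin-35(n745), against 9.26, 9.21 and 9.4 in N2. The L1 arrays separated by strain and the embryo arrays overlapped, and the median difference was 0.50. In N2, 46 of the 47 genes were lower at L1 than in embryos.

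The 4 largest differences belonged to genes that act at different steps of replication. tipn-1 encodes the TIPIN-type protein that steadies stalled forks, and read 8.65, 8.27 and 8.16 on the lin-35(n745) L1 arrays, against 5.88, 6.09 and 5.9 on the N2 L1 arrays, and 7.52, 7.56 and 7.45 on the lin-35(n745) embryo arrays, against 6.7, 6.64 and 6.82 on the N2 embryo arrays. It rose at both stages without overlap and the difference was 1.61 ± 0.17 (SE; adjusted p = 2.96e-06). cdc-7, the kinase gene that fires origins, read 7.92, 7.88 and 7.85 in lin-35(n745) L1 larvae and 6.49, 6.32 and 6.18 in N2 L1 larvae, and 7.9, 8.3 and 8.09 in lin-35(n745) embryos and 7.9, 7.78 and 8.24 in N2 embryos. Its mutant larvae matched the embryos of both strains, which overlapped, and only the N2 larvae were low, with a difference of 1.43 ± 0.18 (SE; adjusted p = 1.37e-05). mcm-7, a subunit of the replicative helicase, differed by 1.18 ± 0.15 (SE; adjusted p = 3.21e-05) and orc-5, of the origin recognition complex, by 1.12 ± 0.14 (SE; adjusted p = 2.66e-05). Not every member passed: mcm-2 had a difference of 0.4 (adjusted p = 0.0806; 95% interval 0.11 to 0.70) and the sliding clamp gene pcn-1 one of 0.44 (adjusted p = 0.0696), though both rose at L1. For rnr-1, the large subunit of ribonucleotide reductase, the difference was 0.06 with an interval of -0.23 to 0.34.

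Most mitosis genes also rose in the mutant larvae. Of 72 measured, 54 rose at L1, where 8.72% of all genes rose, and 17 in embryos, where 6.23% rose. The difference was called higher for 38 (52.8%, against 5.22% of all genes) and lower for 0, with a median of 0.51. The list's medians were 8.91, 8.57 and 8.83 on the lin-35(n745) L1 arrays, against 8.0, 7.94 and 7.98 on the N2 L1 arrays, and 9.69, 9.81 and 9.71 in lin-35(n745) embryos, against 9.63, 9.56 and 9.66 in N2 embryos. Mutant L1 replicate 2 was the lowest of its group and still above every N2 L1 array. The kinetochore gene kbp-3 led with 11.68, 11.47 and 11.58 in lin-35(n745) L1 larvae and 9.4, 9.1 and 9.17 in N2 L1 larvae, and 11.77, 11.57 and 11.34 in lin-35(n745) embryos and 10.88, 10.83 and 11.004 in N2 embryos. It rose without overlap at both stages, at a difference of 1.69 ± 0.17 (SE; adjusted p = 1.29e-06). Next came san-1, a spindle checkpoint gene (1.2, adjusted p = 2.12e-05), knl-1, a scaffold of the outer kinetochore (1.09, adjusted p = 1.08e-05), and capg-2, of condensin II (1.08, adjusted p = 6.07e-05). For these 3 the strain effect in embryos lay between -0.03 and 0.17 and was not called. Fitted on the 12 arrays alone, 19 replication and 30 mitosis genes were called higher.

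Of 51 DNA repair and apoptosis genes, 17 were higher (33.3%, against 5.22% of all genes) and 0 lower at L1. The median difference was 0.38, and the higher count lay between 10 and 22 over the alternatives. polk-1, which encodes a translesion polymerase, differed by 1.1 ± 0.18 (SE; adjusted p = 0.000452), msh-6, of mismatch repair, by 1.06 ± 0.16 (SE; adjusted p = 0.000235), exo-1, an exonuclease gene, by 0.98 ± 0.16 (SE; adjusted p = 0.000434) and smc-5, of the SMC-5/6 complex, by 0.98 ± 0.14 (SE; adjusted p = 9.92e-05). The last of these read 9.22, 9.16 and 9.35 in lin-35(n745) L1 larvae and 8.08, 8.18 and 8.06 in N2 L1 larvae, and 9.59, 9.5 and 9.48 in lin-35(n745) embryos and 9.24, 9.25 and 9.59 in N2 embryos. Its N2 L1 arrays stood about 1 log2 unit below all other groups, and the embryo arrays overlapped.

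Of 18 regulators of entry into S phase, 3 were higher (16.7%) and 0 lower at L1, with a median difference of 0.20. They were dpl-1, the DP partner of E2F (0.88, adjusted p = 0.00675), and the inhibitors of cyclin-dependent kinases cki-2 (0.8, adjusted p = 0.00432) and cki-1 (0.53, adjusted p = 0.039). cki-1 was called in 6 of 21 alternatives. cye-1, the cyclin E gene, rose at both stages, by 0.78 at L1 and 0.58 in embryos. Its arrays read 6.55, 6.5 and 6.53 in lin-35(n745) L1 larvae and 5.74, 5.73 and 5.78 in N2 L1 larvae, and 8.33, 8.45 and 8.24 in lin-35(n745) embryos and 7.75, 7.54 and 7.99 in N2 embryos. The strains did not overlap at either stage, and the difference of 0.2 had a 95% interval of -0.11 to 0.51 and did not pass the test (adjusted p = 0.49).

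Among 32 synMuv and DREAM genes, which encode LIN-35's own partners and related repressors, 6 were higher and 0 lower at L1. The higher share was 18.8%, against 5.22% of all genes, and the median difference was 0.25. Without N2 embryo replicate 3 the count was 3. lin-13, a zinc finger gene of the synMuv B class, read 9.68, 10.06 and 10.14 in lin-35(n745) L1 larvae and 8.89, 8.89 and 8.81 in N2 L1 larvae, and 10.16, 10.16 and 10.33 in lin-35(n745) embryos and 9.98, 9.81 and 10.31 in N2 embryos. The L1 arrays separated and the embryo arrays overlapped, with a difference of 0.92 ± 0.18 (SE; adjusted p = 0.00194). lin-56, of the synMuv A class, fell in embryos by 0.55 and was not called at L1 (difference 0.76, adjusted p = 0.0219). The remodelling ATPase gene isw-1 differed by 0.68 and ark-1, a kinase gene that damps epidermal growth factor signalling, by 0.65; lin-56 was called in 16, isw-1 in 20 and ark-1 in 17 of 21 alternatives. The remaining members of the 6, lin-9 and rba-1, differed by 0.54 and 0.49.

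**Figure D3:**
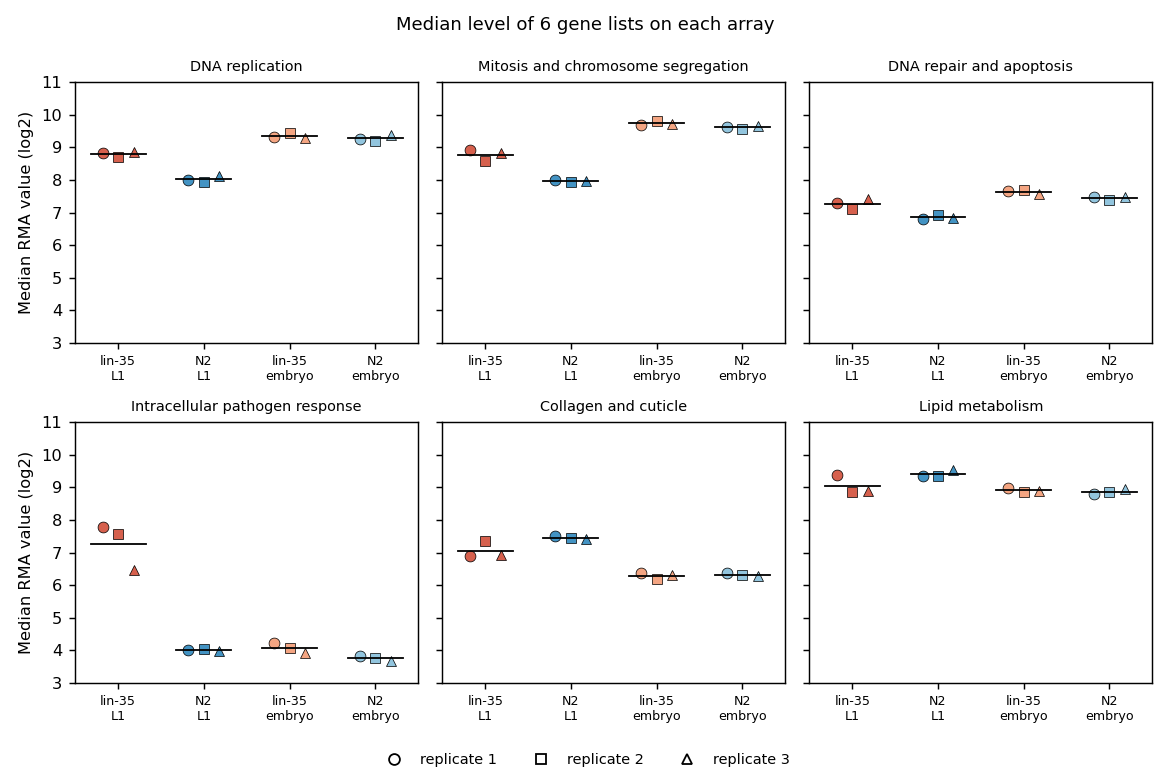
Median RMA value (log2) over the measured members of 6 gene lists on each of the 12 arrays, with lin-35(n745) left of N2 at each stage and a bar at the mean of 3 arrays. The replication and mitosis medians of N2 larvae lie below all other groups, and the intracellular pathogen response medians are above 6 on the mutant L1 arrays and at most 4.23 elsewhere.

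The intracellular pathogen response is a set of genes that worms switch on when microsporidia or the Orsay virus grow inside intestinal cells, and it includes many pals genes and subunits of a ubiquitin ligase. Of 37 such genes measured, 25 had a higher strain effect at L1 (67.6%, against 5.22% of all genes) and 0 a lower one. The median difference of 1.93 was the highest among the 27 lists. The list's median level was 7.78, 7.55 and 6.47 on the lin-35(n745) L1 arrays, against 4.0, 4.05 and 3.99 on the N2 L1 arrays. In embryos the medians were 4.23, 4.06 and 3.93 in lin-35(n745), against 3.82, 3.76 and 3.67 in N2. At L1, 32 of the 37 rose, where 8.72% of all genes rose. In embryos 6 rose and 2 fell, against 6.23% and 4.12% of all genes. Mutant L1 replicate 3 was the lowest of its group for 29 of the 37, and for 24 of the 25 called genes all 3 mutant L1 arrays lay above all N2 L1 arrays. Without replicate 3 the median difference was 2.32 and 29 genes were called.

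F26F2.4 had the highest estimated difference. It read 9.79, 9.9 and 7.83 on the lin-35(n745) L1 arrays, against 4.0, 4.05 and 4.1 on the N2 L1 arrays, and 3.68, 3.67 and 3.62 on the lin-35(n745) embryo arrays, against 3.59, 3.6 and 3.6 on the N2 embryo arrays. The mutant larvae were far above all other groups, and the difference was 5.06 ± 0.45 (SE; adjusted p = 1.95e-07). The other groups stood close to the medians of 1212 chemoreceptor genes, which were 3.93 in N2 L1 larvae and 3.61 in embryos of both strains, so a lower level there could hardly be measured and the size and rank of the difference are not exact. Neighbouring F26F2 genes gave 4.41 for F26F2.3, 3.4 for F26F2.5 and 3.23 for F26F2.1. All 4 lie on chromosome V, and how far their probe sets read one another was not tested. sdz-6 read 8.87, 9.21 and 6.25 in lin-35(n745) L1 larvae and 3.9, 3.64 and 3.82 in N2 L1 larvae, and 3.78, 3.78 and 3.67 in lin-35(n745) embryos and 4.05, 4.35 and 4.65 in N2 embryos. Replicate 3 was more than 2 log2 units below the other mutant L1 arrays but still above every N2 array, and the difference was 4.93 ± 0.63 (SE; adjusted p = 2.21e-05). B0507.8 differed by 4.58 ± 0.41 (SE; adjusted p = 2.06e-07).

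pals-6 read 9.66, 9.58 and 7.89 on the lin-35(n745) L1 arrays, against 3.79, 3.85 and 3.75 on the N2 L1 arrays, and 4.42, 4.48 and 4.18 on the lin-35(n745) embryo arrays, against 3.77, 3.66 and 3.49 on the N2 embryo arrays. The mutant arrays exceeded N2 at both stages, but in embryos by 0.72, which did not pass the test (adjusted p = 0.119), and the difference was 4.52 ± 0.39 (SE; adjusted p = 1.41e-07). Other members of the family with differences above 3 were pals-2, pals-30, pals-28, pals-27 and pals-38, named here after their values were seen. eol-1, which acts in olfactory learning and belongs to the same response, read 11.096, 10.94 and 9.59 in lin-35(n745) L1 larvae and 6.07, 5.76 and 5.92 in N2 L1 larvae, and 5.96, 6.01 and 5.89 in lin-35(n745) embryos and 5.2, 5.24 and 4.95 in N2 embryos. It rose at both stages, 24.7-fold at L1 and 1.77-fold in embryos, with a difference of 3.8 ± 0.34 (SE; adjusted p = 2.06e-07).

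The 10 highest differences also held ddn-1 and F57G4.11, which are on none of the 27 lists. ddn-1 read 12.04, 11.99 and 10.95 in lin-35(n745) L1 larvae and 6.14, 5.86 and 5.81 in N2 L1 larvae, and 7.29, 6.96 and 6.82 in lin-35(n745) embryos and 5.8, 5.78 and 6.09 in N2 embryos, a difference of 4.59 ± 0.29 (SE; adjusted p = 1.26e-09). F57G4.11 read 8.37, 8.66 and 6.79 in lin-35(n745) L1 larvae and 4.12, 4.02 and 4.3 in N2 L1 larvae, and 3.74, 3.76 and 3.7 in lin-35(n745) embryos and 3.73, 3.56 and 3.7 in N2 embryos, a difference of 3.72 ± 0.40 (SE; adjusted p = 2.56e-06).

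Among the pals genes that control the response, pals-22 restrains it and pals-25 promotes it. pals-22 read 7.91, 7.55 and 7.71 in lin-35(n745) L1 larvae and 7.11, 7.05 and 7.18 in N2 L1 larvae, and 7.85, 7.75 and 7.81 in lin-35(n745) embryos and 8.1, 8.26 and 8.47 in N2 embryos. It rose at L1 by 0.61 and fell in embryos by 0.47, without overlap at either stage, at a difference of 1.08 ± 0.16 (SE; adjusted p = 0.000102). pals-25 was not called at L1, fell in embryos by 0.46 and differed by 0.62 ± 0.16 (SE; adjusted p = 0.0141). drh-1, whose product senses viral RNA upstream of the response, is given above.

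For 12 of the 37 response genes the difference between stages did not pass the test. skr-5, a Skp1-type ubiquitin ligase gene, read 8.16, 8.2 and 7.74 in lin-35(n745) L1 larvae and 5.73, 5.35 and 5.81 in N2 L1 larvae, and 6.86, 6.87 and 6.51 in lin-35(n745) embryos and 4.26, 4.51 and 4.54 in N2 embryos. The mutant arrays were above N2 by about the same amount at both stages, 2.4 at L1 and 2.31 in embryos, and the difference of 0.09 had an interval of -0.35 to 0.53. skr-3, cul-6, pals-26 and F20G2.5 were also raised at both stages with differences of 0.24, 0.52, 0.06 and 0.32 that did not pass, whereas skr-4 passed at 1.91. pals-24, pals-13, pals-23 and Y6G8.2 were called at neither stage. These members, and skr-5 with the others of this paragraph, were named after their values were seen.

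**Figure D4:**
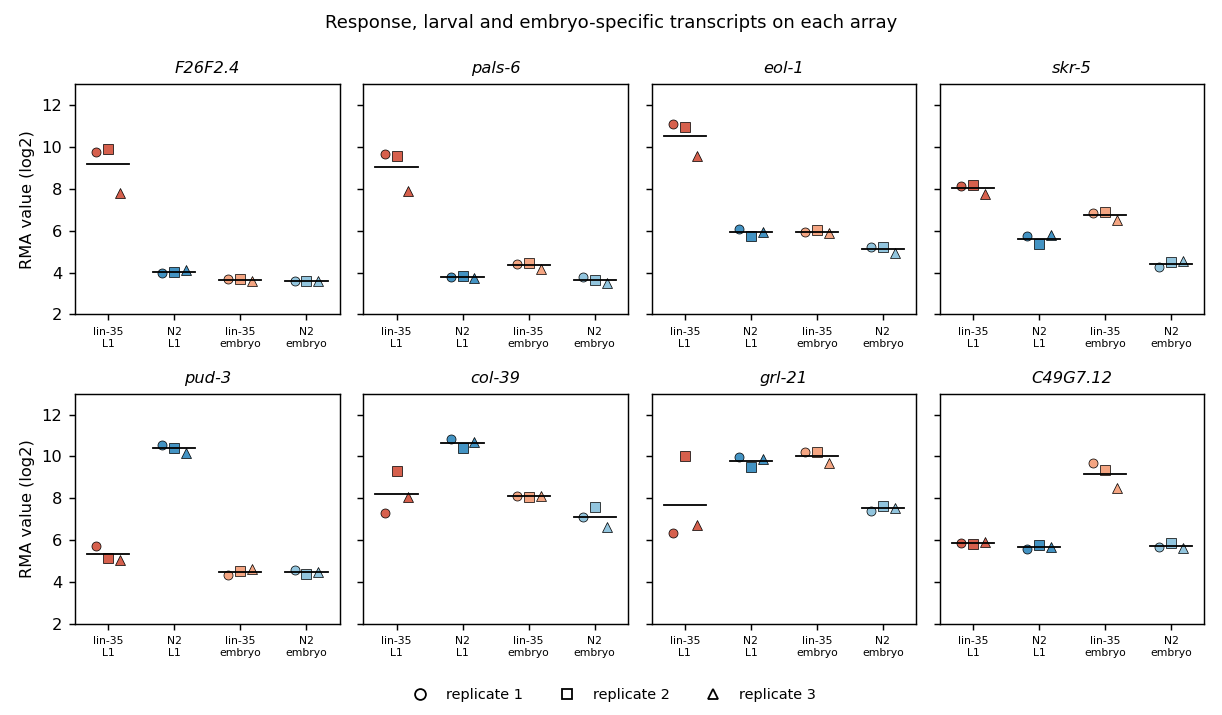
RMA values (log2) of 8 genes on each of the 12 arrays, with lin-35(n745) left of N2 at each stage, a marker shape per replicate and a bar at each group mean. F26F2.4, pals-6 and eol-1 are high on the mutant L1 arrays with replicate 3 lowest, skr-5 is raised at both stages, pud-3 is low on the mutant L1 arrays, grl-21 is near the N2 level on mutant L1 replicate 2 alone, and C49G7.12 is high on the mutant embryo arrays only.

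Other immune genes were more often lower at L1 than higher. Of 57 measured, 4 were higher (7.02%, against 5.22% of all genes) and 13 lower (22.8%, against 4.4%) at L1, with a median difference of -0.16. For 12 of the 13 the gene rose in the mutant embryos. The largest in the higher direction were the C-type lectin genes clec-60 and clec-61, which are induced by bacteria in the gut. clec-61 read 8.38, 8.46 and 8.7 in lin-35(n745) L1 larvae and 5.99, 5.62 and 5.91 in N2 L1 larvae, and 3.9, 3.93 and 4.07 in lin-35(n745) embryos and 3.98, 4.03 and 4.07 in N2 embryos. The embryo arrays overlapped, the L1 arrays separated by more than 2 log2 units, and the difference was 2.73 ± 0.19 (SE; adjusted p = 5.89e-09), with 2.99 for clec-60. clec-67 (1.1) and spp-18 (0.47) completed the 4, and without lin-35(n745) L1 replicate 3 there were 7.

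lys-3, a lysozyme gene, stood for the larger set. It read 4.58, 5.06 and 4.45 in lin-35(n745) L1 larvae and 4.77, 4.37 and 4.58 in N2 L1 larvae, and 6.97, 6.98 and 6.38 in lin-35(n745) embryos and 4.27, 4.19 and 4.32 in N2 embryos. At L1 the strains overlapped, in the mutant embryos the gene was 5.72-fold its N2 level, and the difference was -2.4 ± 0.22 (SE; adjusted p = 2.97e-07). The infection response genes irg-2, irg-5 and irg-1 and the transcription factor gene zip-2 belonged to the same group with differences of -2.3, -1.76, -0.83 and -1.03, named here after their values were seen. spp-12, a saposin-like gene, was the 1 that fell at L1. It read 6.98, 5.19 and 4.1 in lin-35(n745) L1 larvae and 8.57, 8.35 and 8.25 in N2 L1 larvae, and 3.94, 3.69 and 3.82 in lin-35(n745) embryos and 3.99, 3.8 and 3.79 in N2 embryos, a difference of -2.93 ± 0.55 (SE; adjusted p = 0.00163). In embryos of both strains spp-12 lay near the chemoreceptor median of 3.61, so a fall there could hardly be measured. Without lin-35(n745) embryo replicate 1 the number of lower immune genes was 8.

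The lowest difference of all belonged to pud-3, and only grl-21 lay between it and pud-4; both are named for proteins that accumulate in daf-2 insulin receptor mutants. pud-3 read 5.74, 5.16 and 5.05 on the lin-35(n745) L1 arrays, against 10.57, 10.42 and 10.19 on the N2 L1 arrays, and 4.32, 4.52 and 4.64 on the lin-35(n745) embryo arrays, against 4.57, 4.36 and 4.48 on the N2 embryo arrays. N2 larvae held 33.7 times the level of mutant larvae, which stood only slightly above embryos of either strain, the embryo arrays overlapped, and the difference was -5.1 ± 0.21 (SE; adjusted p = 4.9e-12). pud-4 read 5.33, 4.42 and 4.15 in lin-35(n745) L1 larvae and 9.51, 9.29 and 9.37 in N2 L1 larvae, and 3.66, 3.83 and 3.71 in lin-35(n745) embryos and 4.17, 4.22 and 4.23 in N2 embryos, with a difference of -4.28 ± 0.27 (SE; adjusted p = 1.06e-09). Both genes lie on chromosome V, and how far their probe sets read each other was not tested. Neither lost its call in any alternative. In embryos of both strains the 2 genes were low, near the chemoreceptor median of 3.61. A fall as large as that at L1 could not have been measured there, so the size of the difference is not exact.

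The collagen and cuticle genes called at L1 mostly fell in the mutant. Of 163 measured, 39 fell and 2 rose at L1, where 6.81% of all genes fell and 8.72% rose. In embryos 11 rose, close to the 6.23% of all genes that rose, and 3 fell, against 4.12%. The difference was called lower for 26 (16%, against 4.4% of all genes). It was called higher for 3 (dpy-2, dpy-7 and col-128), or 1.84% against 5.22%, and its median was -0.25. The list's medians were 6.88, 7.35 and 6.93 on the lin-35(n745) L1 arrays, against 7.51, 7.43 and 7.42 on the N2 L1 arrays. In embryos they were 6.37, 6.2 and 6.3 in lin-35(n745), against 6.37, 6.3 and 6.27 in N2. Mutant L1 replicate 2 lay closest to N2, and without that array 46 genes were called lower and the median was -0.36, while the lowest count over the alternatives was 17.

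The same array stood out among the largest single changes. col-39 read 7.28, 9.29 and 8.08 on the lin-35(n745) L1 arrays, against 10.84, 10.42 and 10.68 on the N2 L1 arrays, and 8.12, 8.06 and 8.09 on the lin-35(n745) embryo arrays, against 7.13, 7.57 and 6.61 on the N2 embryo arrays. It fell at L1 and rose in embryos, each without overlap, with a difference of -3.41 ± 0.44 (SE; adjusted p = 2.25e-05). col-91 differed by -2.91 ± 0.34 (SE; adjusted p = 7.18e-06), col-159 by -2.26 ± 0.26 (SE; adjusted p = 7.66e-06) and col-130 by -2.23 ± 0.51 (SE; adjusted p = 0.00808), and in each the second mutant L1 replicate was the highest of the 3. col-130 read 7.08, 9.34 and 7.03 in lin-35(n745) L1 larvae and 9.88, 9.54 and 9.73 in N2 L1 larvae, a gap of more than 2 log2 units between replicate 2 and the other mutant arrays.

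Molting genes gave 3 higher (7.5%, against 5.22% of all genes) and 6 lower (15%, against 4.4%) of 40. The median difference was -0.01, and its sign varied among the alternatives. grl-21, a hedgehog-related gene, had the second lowest difference of all. It read 6.36, 10.03 and 6.7 on the lin-35(n745) L1 arrays, against 9.97, 9.51 and 9.87 on the N2 L1 arrays, and 10.21, 10.23 and 9.67 on the lin-35(n745) embryo arrays, against 7.4, 7.64 and 7.55 on the N2 embryo arrays. Replicates 1 and 3 of the mutant larvae were about 3 log2 units below N2 while replicate 2 was above all 3 N2 arrays, so the L1 groups overlapped. The standard deviation was 2.03 in the mutant larvae, against 0.08 to 0.31 in the other groups. The SE shares its spread over all groups and understates that of the mutant larvae. In embryos the mutant arrays were the higher ones without overlap, and the difference was -4.59 ± 0.77 (SE; adjusted p = 0.00051). Genes with the same outlying array were nspb-12, a nematode-specific peptide gene that read 5.85, 9.22 and 5.89 in lin-35(n745) L1 larvae and 9.45, 9.49 and 9.48 in N2 L1 larvae, with a difference of -3.55 ± 0.73 (SE; adjusted p = 0.00346), and abu-10, a gene of the pharyngeal cuticle that read 6.75, 9.84 and 6.16 in lin-35(n745) L1 larvae and 9.9, 9.83 and 9.87 in N2 L1 larvae, with a difference of -3.25 ± 0.75 (SE; adjusted p = 0.00834). For abu-10 a second, dim probe set gave a difference of 0.08 that did not pass the test, and the abu-10 call was lost with an intensity trend in the variance.

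wrt-8, also hedgehog-related, differed by -1.93 ± 0.31 (SE; adjusted p = 0.000315), and mlt-7, a peroxidase gene needed for molting, by -1.18 ± 0.18 (SE; adjusted p = 0.000164). Both fell at L1 and rose in embryos. ptr-8, a patched-related gene, read 8.95, 8.88 and 9.73 in lin-35(n745) L1 larvae and 8.57, 8.45 and 8.34 in N2 L1 larvae, and 7.32, 7.49 and 7.06 in lin-35(n745) embryos and 4.98, 5.36 and 5.44 in N2 embryos. It rose at both stages without overlap, 1.66-fold at L1 and 4.08-fold in embryos, so its negative difference of -1.3 ± 0.25 (SE; adjusted p = 0.00163) came from the larger rise in embryos. The other lower genes were nas-36 (-1.13) and ptr-23 (-1.02), and the 3 higher ones were peb-1, myrf-1 and wrt-1, at 1.07, 0.69 and 0.63. Without mutant L1 replicate 2 there were 10 lower genes. The part of mutant L1 replicate 2 in these values was not tested further.

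Of the fat metabolism genes called at L1, nearly all fell in the mutant. Of 67, 18 fell and 1 rose at L1, where 6.81% of all genes fell and 8.72% rose. The difference was higher for 2, ech-1.1 and lipl-1 (2.99%, against 5.22% of all genes), and lower for 13 (19.4%, against 4.4%). The median difference was -0.24, or -0.36 without lin-35(n745) L1 replicate 1. fat-6 and fat-7 encode the delta-9 desaturases that make oleic acid. fat-6 read 10.87, 10.27 and 10.93 in lin-35(n745) L1 larvae and 11.18, 11.18 and 11.11 in N2 L1 larvae, and 9.16, 9.32 and 8.88 in lin-35(n745) embryos and 8.02, 8.04 and 8.04 in N2 embryos. It was lower than N2 on all 3 mutant L1 arrays and higher on all 3 mutant embryo arrays, with a difference of -1.55 ± 0.20 (SE; adjusted p = 1.99e-05). fat-7 differed by -1.37 ± 0.24 (SE; adjusted p = 0.000755) and the fatty acid elongase gene elo-1 by -1.02 ± 0.15 (SE; adjusted p = 0.000147). pmp-5, a gene for a peroxisomal ABC transporter, fell at both stages and more at L1: it read 8.38, 6.85 and 6.87 in lin-35(n745) L1 larvae and 10.52, 10.49 and 10.67 in N2 L1 larvae, and 8.81, 8.65 and 9.06 in lin-35(n745) embryos and 10.19, 10.104 and 10.35 in N2 embryos. Replicate 1 was the highest of the mutant L1 arrays by more than 1 log2 unit, all 3 were below N2, and the difference was -1.82 ± 0.36 (SE; adjusted p = 0.0022).

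Of 43 amino acid and one-carbon genes, 14 were lower at L1 (32.6%, against 4.4% of all genes) and 3 higher, with a median difference of -0.27. At L1 14 of the 43 fell and 4 rose, against 6.81% and 8.72% of all genes. The asparagine synthetase genes led: asns-2 read 9.32, 6.92 and 6.88 in lin-35(n745) L1 larvae and 10.398, 9.98 and 10.25 in N2 L1 larvae, and 12.48, 12.41 and 12.49 in lin-35(n745) embryos and 12.36, 12.59 and 12.47 in N2 embryos. All mutant L1 arrays were below N2, replicate 1 by the least, the embryo arrays overlapped, and the difference was -2.49 ± 0.54 (SE; adjusted p = 0.0049). asns-1 differed by -1.38 (adjusted p = 0.0212), with replicate 2 of the mutant larvae at 8.80 within the N2 range of 8.70 to 9.07, and it was called in 13 of 21 alternatives. In the other direction, the glutamine synthetase gene gln-6 read 9.29, 9.32 and 9.26 in lin-35(n745) L1 larvae and 6.7, 5.77 and 6.13 in N2 L1 larvae, and 11.01, 10.87 and 10.91 in lin-35(n745) embryos and 11.002, 10.66 and 10.88 in N2 embryos, a difference of 3.01 ± 0.22 (SE; adjusted p = 1.31e-08); gln-5 differed by 1.01 and kmo-1 by 0.93. The lower count was 9 without N2 L1 replicate 2, 7 without N2 L1 replicate 3, 9 without N2 embryo replicate 1, 8 without lin-35(n745) embryo replicate 1, and 6 when the 12 arrays were fitted alone.

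Heat shock and stress genes gave 0 higher and 7 lower of 35 (20%, against 4.4% of all genes), with a median difference of -0.18. The small heat shock gene hsp-16.41 read 5.77, 5.96 and 5.11 in lin-35(n745) L1 larvae and 8.72, 6.22 and 7.35 in N2 L1 larvae, and 10.97, 11.13 and 11.74 in lin-35(n745) embryos and 10.73, 10.71 and 10.71 in N2 embryos. The N2 L1 arrays spread over 2.5 log2 units with replicate 1 the highest, all of them above the mutant arrays, and the difference was -2.38 ± 0.54 (SE; adjusted p = 0.00692). hsp-16.2 differed by -2.17 (adjusted p = 0.00172), hsp-70 by -1.35 (adjusted p = 0.008) and hsp-12.1 by -1.1 (adjusted p = 0.033). The hsp-16 genes are close copies, and hsp-12.1 was called in 8 of 21 alternatives.

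**Figure D5:**
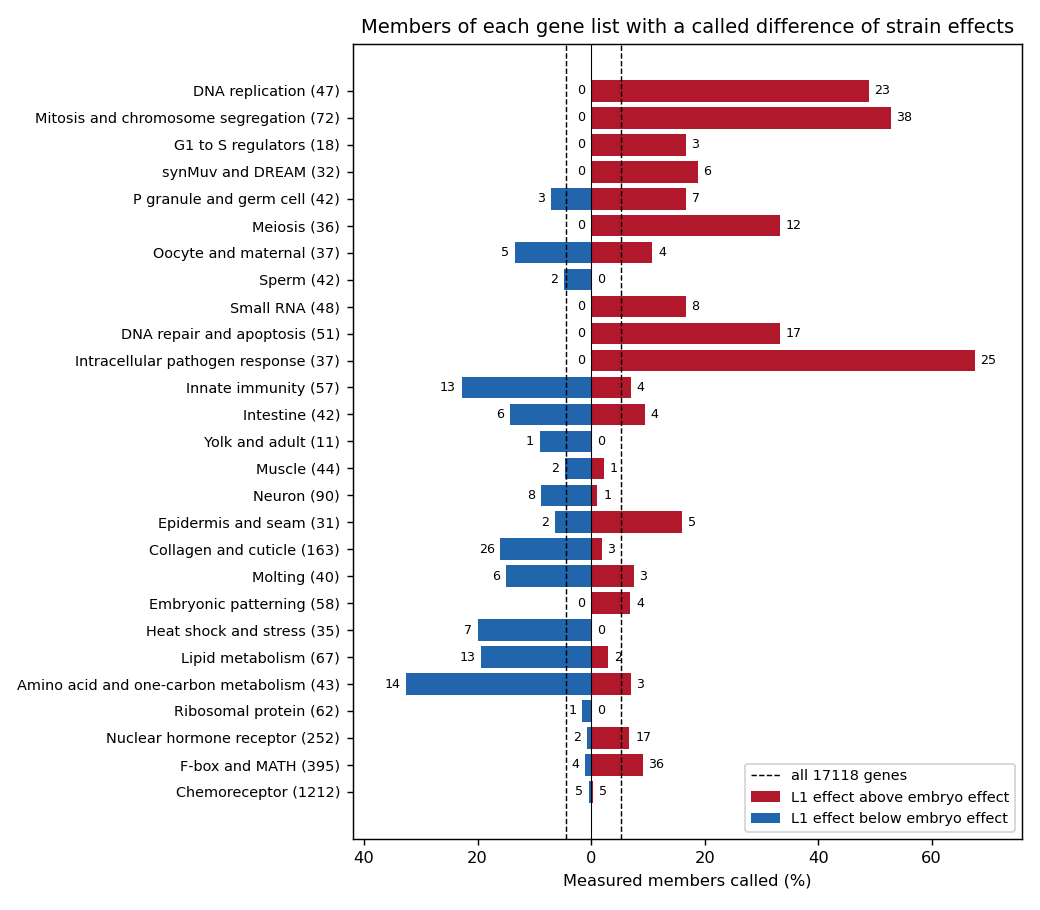
Percent of the measured members of each of 27 gene lists whose difference was called, to the right where the strain effect was higher at L1 and to the left where it was lower, with the number of genes at each bar and the list size in brackets. Dashed lines mark the shares over all 17118 genes, 5.22% higher and 4.4% lower; the intracellular pathogen response, mitosis and replication lists reach farthest right and amino acid genes farthest left.

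Some differences were accompanied by a called strain effect in embryos and none at L1. The 4 lowest among these genes were C49G7.12, Y58A7A.4, Y60C6A.1 and Y47H9C.1, which carry only sequence names. C49G7.12 read 5.85, 5.83 and 5.93 on the lin-35(n745) L1 arrays, against 5.6, 5.74 and 5.69 on the N2 L1 arrays, and 9.71, 9.36 and 8.47 on the lin-35(n745) embryo arrays, against 5.67, 5.85 and 5.64 on the N2 embryo arrays. Larvae of both strains and N2 embryos were all between 5.60 and 5.93, the mutant embryos stood at 11-fold the N2 embryo level, and the difference was -3.27 ± 0.27 (SE; adjusted p = 8.42e-08). Y47H9C.1 read 5.28, 5.6 and 5.36 in lin-35(n745) L1 larvae and 5.35, 5.42 and 5.43 in N2 L1 larvae, and 8.6, 8.64 and 8.12 in lin-35(n745) embryos and 5.41, 5.63 and 4.96 in N2 embryos, with the strains overlapping at L1 and a difference of -3.11 ± 0.21 (SE; adjusted p = 3.43e-09). Y58A7A.4 differed by -3.24 ± 0.28 (SE; adjusted p = 1.25e-07) and Y60C6A.1 by -3.18 ± 0.28 (SE; adjusted p = 1.41e-07). dbd-13, the fifth by rule, differed by -3.03 ± 0.85 (SE; adjusted p = 0.0281), but its mutant L1 arrays read 8.85, 11.8 and 7.4, a spread of more than 4 log2 units, and its call was lost when any of several arrays was left out.

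In the other direction, the 5 highest differences among the 165 genes that fell in embryos and were not called at L1 were those of E03H4.4, gtnt-45, gtnt-46, T10B5.8 and T15D6.8. gtnt-46 read 3.47, 3.86 and 3.81 in lin-35(n745) L1 larvae and 3.77, 3.7 and 3.8 in N2 L1 larvae, and 7.17, 6.91 and 7.1 in lin-35(n745) embryos and 8.63, 8.39 and 8.96 in N2 embryos. It was near the lower end of the scale in larvae of both strains, and every mutant embryo array was below every N2 embryo array, with a difference of 1.55 ± 0.18 (SE; adjusted p = 6.18e-06). gtnt-45 read 3.57, 3.25 and 3.58 in lin-35(n745) embryos and 5.33, 4.32 and 6.23 in N2 embryos, and E03H4.4 4.52, 4.41 and 4.51 in lin-35(n745) embryos and 6.19, 5.43 and 6.79 in N2 embryos. T15D6.8 read 3.19, 3.25 and 3.23 in lin-35(n745) embryos and 5.07, 3.95 and 6.54 in N2 embryos. For these 3 the N2 embryo arrays spread by more than 1 log2 unit with replicate 3 the highest and replicate 2 the lowest. The T15D6.8 difference of 1.95 was 1.27 without N2 embryo replicate 3 and was not called with embryo replicates 2 and 3 alone. T10B5.8 differed by 1.71 ± 0.39 (SE; adjusted p = 0.00689).

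For 63 genes the strain effects at the 2 stages were called in opposite directions: 28 rose at L1 and fell in embryos, and 35 fell at L1 and rose in embryos. In all 63 the difference was called as well. That follows from 2 opposite calls on the same arrays and is no separate support. The largest of the first kind were the UDP-glucuronosyltransferase genes ugt-8 and ugt-9, which belong to the detoxifying enzymes. ugt-8 read 9.87, 9.57 and 10.25 in lin-35(n745) L1 larvae and 8.76, 8.66 and 8.75 in N2 L1 larvae, and 6.62, 6.85 and 6.98 in lin-35(n745) embryos and 7.26, 7.37 and 7.41 in N2 embryos. Each stage separated by strain, in opposite directions, and the difference was 1.7 ± 0.18 (SE; adjusted p = 2.69e-06). ugt-9 differed by 1.53 ± 0.24 (SE; adjusted p = 0.000307), with strain effects of 0.66 and -0.87 at L1 and in embryos. nhr-161, a nuclear hormone receptor gene, differed by 1.31, math-27, of the MATH domain family, by 1.3, T05A7.3 by 1.29 and pals-22, given above, by 1.08; their adjusted p-values lay between 0.000102 and 0.000888.

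Of the second kind, grl-21, col-39 and col-159 are given above. clec-230 read 8.52, 9.15 and 7.64 in lin-35(n745) L1 larvae and 9.57, 9.53 and 9.82 in N2 L1 larvae, and 9.71, 9.65 and 9.49 in lin-35(n745) embryos and 8.18, 8.51 and 8.1 in N2 embryos. The strains did not overlap at either stage and the difference was -2.56 ± 0.32 (SE; adjusted p = 2e-05). F48G7.5 differed by -2.61 ± 0.52 (SE; adjusted p = 0.00268) and W03F8.6 by -2.39 ± 0.33 (SE; adjusted p = 6.08e-05). For F48G7.5 mutant L1 replicate 2, at 9.09, was above all N2 L1 arrays (8.85 to 9.07) and the other two read 7.14 and 6.94, so the groups overlapped at L1.

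A shared response was measured too. Of all 17118 genes, 280 rose and 86 fell at both stages with no called difference between the stages. Another 109 and 42 rose at both stages, and 11 fell, with a called difference, as given above. The count that follows also asks for a minimum size. In 101 genes the strain effect was called in the same direction at both stages with at least 1 log2 unit each, 93 up and 8 down. The difference was called higher at L1 for 33 of them and lower for 15. For the other 53 it was not called, and for 44 of the 101 the 95% interval of the difference lay within 1 log2 unit of 0, for 10 within 0.5. By rule the closest to 0 were ugt-16, tag-120, F01G4.4, clc-19, cyp-33C8 and T07G12.8. clc-19, a claudin-like gene, read 8.43, 8.36 and 8.06 in lin-35(n745) L1 larvae and 6.96, 6.55 and 6.8 in N2 L1 larvae, and 7.44, 7.47 and 7.01 in lin-35(n745) embryos and 5.71, 5.77 and 5.85 in N2 embryos. Each stage separated by strain, with effects of 1.52 and 1.53, and the difference of -0.01 had an interval of -0.46 to 0.44. T07G12.8 had the narrowest interval of the 6, -0.30 to 0.36, though its second probe set showed no called strain effect at either stage. tbb-6, which encodes a divergent beta-tubulin, was called up at both stages as well: it read 7.42, 8.09 and 9.64 in lin-35(n745) L1 larvae and 5.9, 6.03 and 5.7 in N2 L1 larvae, and 10.11, 10.34 and 9.65 in lin-35(n745) embryos and 5.71, 5.45 and 5.62 in N2 embryos. The mutant L1 arrays spread over more than 2 log2 units with replicate 3 highest, and the difference of -1.93 ± 0.47 (SE; adjusted p = 0.0113) was not called after quantile normalisation or with an intensity trend.

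Of 58 embryonic patterning genes, 4 were higher at L1 (6.9%, against 5.22% of all genes) and 0 lower, with a median difference of 0.11; they were hlh-14, sdz-10, die-1 and ceh-13, at 0.8, 0.65, 0.62 and 0.53. hlh-14, a proneural factor gene, read 5.3, 5.25 and 5.35 in lin-35(n745) L1 larvae and 5.06, 5.11 and 5.14 in N2 L1 larvae, and 8.05, 7.69 and 7.66 in lin-35(n745) embryos and 8.48, 8.39 and 8.32 in N2 embryos. It was low in larvae and fell in the mutant embryos, which were below N2 without overlap, with a difference of 0.8 ± 0.15 (SE; adjusted p = 0.00129). The count was 2 without N2 L1 replicate 1 or without N2 embryo replicate 3, and die-1 was called in 12 and ceh-13 in 11 of 21 alternatives.

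Neuronal genes gave 1 higher (ceh-10) and 8 lower of 90 (8.89%, against 4.4% of all genes), with a median difference of -0.08. In embryos 21 of them rose and 2 fell, against 6.23% and 4.12% of all genes. The neuropeptide gene flp-8 read 9.86, 10.26 and 10.12 in lin-35(n745) L1 larvae and 9.98, 9.82 and 9.9 in N2 L1 larvae, and 8.43, 8.36 and 8.36 in lin-35(n745) embryos and 7.41, 7.44 and 7.38 in N2 embryos. The L1 arrays overlapped, the mutant embryos were about 1 log2 unit above N2, and the difference was -0.79 ± 0.14 (SE; adjusted p = 0.000914). flp-4 differed by -0.85 ± 0.15 (SE; adjusted p = 0.000992) in the same way. ace-1, an acetylcholinesterase gene, also was called in embryos alone, where it rose (difference -0.74), and tdc-1, the tyrosine decarboxylase gene, fell at L1 (difference -0.83), but 2 other probe sets of tdc-1 gave -0.03 and 0.12 and were not called. Without embryo replicate 1 of either strain alone, the lower count was 5.

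In the intestine list 4 of 42 were higher (9.52%) and 6 lower (14.3%) at L1, with a median difference of -0.34, or -0.20 without lin-35(n745) L1 replicate 3. The higher ones were pgp-1 (1.58), cdr-1 (1.31), cpr-5 (0.68) and elt-2 (0.64), the last encoding the main GATA factor of the gut. pgp-1, a gene for an ABC transporter, read 8.97, 8.68 and 10.23 in lin-35(n745) L1 larvae and 7.94, 7.99 and 7.95 in N2 L1 larvae, and 5.97, 5.72 and 6.1 in lin-35(n745) embryos and 6.11, 6.26 and 6.17 in N2 embryos, with mutant L1 replicate 3 the highest array. asp-6, an aspartyl protease gene, was called in embryos alone, where it rose, with a difference of -0.87 ± 0.20 (SE; adjusted p = 0.0093), and acs-22, for an acyl-CoA synthetase, was called at L1 alone, where it fell, with a difference of -0.87 ± 0.17 (SE; adjusted p = 0.00171). The lower count was 3 without N2 L1 replicate 1 or without N2 L1 replicate 3, and 11 without lin-35(n745) L1 replicate 1.

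Epidermis and seam genes gave 5 higher (16%, against 5.22% of all genes) and 2 lower (6.45%, against 4.4%) of 31. The median difference was 0.28. rnt-1, the Runx factor gene that drives seam cell division, read 7.69, 7.61 and 7.42 in lin-35(n745) L1 larvae and 6.75, 6.92 and 6.95 in N2 L1 larvae, and 6.94, 6.73 and 6.87 in lin-35(n745) embryos and 7.05, 6.9 and 6.89 in N2 embryos. The mutant larvae were above all other groups and the embryo arrays overlapped, with a difference of 0.8 ± 0.15 (SE; adjusted p = 0.00132). eff-1, which encodes the protein that fuses epidermal cells, differed by 0.65, and elt-6, sma-1 and dpy-7 completed the 5. The 2 lower ones were mup-4 (-1.11, adjusted p = 0.00701) and grd-10 (-0.86, adjusted p = 0.0117). The higher count was 9 without lin-35(n745) L1 replicate 2, and 3 without N2 L1 replicate 2, without N2 embryo replicate 3 or without lin-35(n745) embryo replicate 1.

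Muscle genes gave 1 higher and 2 lower of 44 (4.55%, against 4.4% of all genes), or 0 to 4 lower with 1 array left out, with a median difference of -0.21, or -0.09 without lin-35(n745) L1 replicate 3. They were unc-22, the twitchin gene (0.81), unc-52, the perlecan gene (-0.63), and tnt-3, a troponin T gene (-0.54), which were called in 20, 11 and 9 of 21 alternatives in that order. A further probe set of unc-22 gave 0.13 and 2 of unc-52 gave 0.05 and -0.15, and none of these was called. Of 11 yolk and adult genes 0 were higher and 1 lower, vit-4, a yolk protein gene. vit-4 read 5.05, 5.34 and 5.61 in lin-35(n745) L1 larvae and 8.77, 6.06 and 6.92 in N2 L1 larvae. N2 replicate 1 alone was above 7, the vit genes are close copies, and the difference of -1.83 ± 0.57 (SE; adjusted p = 0.0483) was not called in 16 of 21 alternatives.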

How the data were processed

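The values are the authors' deposited RMA values, read as log2 from their range of 2.55 to 15.02; RMA is named in the submitters' processing notes, but not given in the sources used here: its version, log base and which arrays were normalised together. Total RNA of 18 arrays was labelled from 2.5 µg each, per the labels' protocols. Of 22625 probe sets, 77 controls were left out. Each gene was followed through its brightest probe set on average across 18 arrays, among those that name 1 gene (20766 of 22548; 887 named several and 895 none, and 20701 were found in RefSeq WBcel235).

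limma 3.58.1 in R 4.3.3 was fitted to 6 group means on all 18 arrays, with no covariate. It used two-sided tests and Benjamini-Hochberg adjustment over 22548 probe sets, at an adjusted p under 0.05. The fit was also run on simulated data that gave all groups the same spread per probe set. Those data lacked the wider spread of the mutant larvae, so they cannot show how it affects the calls. There were 12 residual and 7.66 prior degrees of freedom. The number of arrays limits the precision, and RNA of whole worms mixes tissues. Named genes were the 10 highest and 10 lowest differences, up to 4 called per list, the leading opposite, embryo-only and alike genes, and 8 set genes; further genes are marked where named. The members and lists were chosen with earlier results of these data known. No pairing was used, because the replicates were grown and isolated independently according to the design text. Over the probe sets, deviations of same-numbered arrays correlated at -0.052 to 0.091, and those of differently numbered arrays at -0.118 to 0.045. The highest values were those of embryo replicates 1 (0.091) and 3 (0.09). With 3 arrays a group these values cannot show that no batch was shared. Embryo replicate 1 of both strains did stand apart together in the hybridisation controls. Alternatives were other arrays in the fit, a replicate block, centring, quantile normalisation, variance trend, array weights, a level filter, each array left out, embryo replicates 2 and 3 alone, another representative probe set and a fold minimum. Promoter motifs were not analysed here.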

Additional observations from a re-analysis of the deposited data

Results flagged for a closer look

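The strain effect at L1 was tested against that in embryos, and 2074 probe sets passed. In 63 genes the strain effect passed the test in opposite directions at the 2 stages, and the 6 with the largest difference of each kind follow. The difference was 1.7 for ugt-8, 1.53 for ugt-9, 1.31 for nhr-161, 1.3 for math-27, 1.29 for T05A7.3 and 1.08 for pals-22, all of which rose at L1 and fell in embryos. It was -4.59 for grl-21, -3.41 for col-39, -2.61 for F48G7.5, -2.56 for clec-230, -2.39 for W03F8.6 and -2.26 for col-159, all of which fell at L1 and rose in embryos. In grl-21 and F48G7.5 the fall at L1 was carried by lin-35(n745) replicates 1 and 3, with replicate 2 above every N2 array. The strains separated without overlap at both stages in the other 10.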

How the results depend on the processing

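The count of 2074 probe sets was 1323 with the 12 embryo and L1 arrays alone (717 higher and 606 lower at L1), 1351 after quantile normalisation (614 lower) and 670 with at least 1 log2 unit as well (298 higher and 372 lower). With the replicate block it was 2020 over 18 arrays and 1278 over 12 (656 higher and 622 lower). The numbers were not taken as pairs, because the replicates were grown independently according to the design text. The correlations of same-numbered arrays lay between -0.052 and 0.091, which cannot show that no batch was shared. With embryo replicates 2 and 3 alone 597 were lower. Of the strain effects, 686 of 3423 at L1 and 352 of 2188 in embryos reached 1 log2 unit; in embryos 1347 passed with the replicate block over 12 arrays, 1401 after quantile normalisation and 1265 with replicates 2 and 3 alone. Leaving out 1 array gave 1540 to 2881 probe sets for the difference.

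Quantile normalisation gave list medians of 0.443 (mitosis), -0.256 (intestine) and 0.0691 (molting, which reversed sign). The level filter gave 2.87 (intracellular pathogen response), -0.201 (innate immunity), 0.222 (nuclear hormone receptor) and 0.159 (F-box and MATH). Embryo replicates 2 and 3 alone gave -0.253 (intestine), -0.0242 (neuron) and 0.174 (nuclear hormone receptor). The probe set of highest variance gave -0.087 (P granule) and 0.193 (epidermis), and centring -0.00631 (ribosomal) and 0.0419 (F-box and MATH). The causes were not tested.

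With 1 array left out, list medians lay between 0.435 and 0.582 (replication), 0.472 and 0.588 (mitosis), 0.170 and 0.274 (G1 to S), 0.207 and 0.348 (synMuv), -0.0182 and 0.171 (P granule), 0.178 and 0.335 (meiosis), -0.323 and -0.146 (sperm), 0.140 and 0.248 (small RNA), 0.322 and 0.480 (DNA repair), 1.76 and 2.32 (intracellular pathogen response), -0.209 and -0.117 (innate immunity), -0.335 and -0.199 (intestine), -0.219 and -0.0554 (yolk), -0.280 and -0.0939 (muscle), -0.130 and -0.0216 (neuron), 0.204 and 0.358 (epidermis), -0.356 and -0.179 (collagen), 0.0917 and 0.161 (embryonic patterning), -0.266 and -0.147 (heat shock), -0.361 and -0.201 (lipid), -0.306 and -0.210 (amino acid), 0.0182 and 0.0511 (ribosomal) and 0.0955 and 0.161 (nuclear hormone receptor).

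Of 136 named genes, 125 were called; 100 of these passed in each of the alternatives that gave them a value (21, or 20 for fbxa-75, fbxa-182 and gtnt-45), 25 lost the call in at least 1 and 0 reversed sign. Another 8 that were not called changed sign around 0. The called named genes had 35 other probe sets. Of these, 31 had the same sign, 15 were called the same way and 4 had the opposite sign. Among those not called were probe sets of die-1 (-0.05), ark-1 (0.16), exo-1 (0.41), rnt-1 (0.42) and cbd-1 (-0.69). The number of arrays, 3 a group, limits the precision.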

Other observations

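Large gene families gave further values. Of 395 F-box and MATH genes, 36 were higher (9.11%, against 5.22% of all genes) and 4 lower (1.01%, against 4.4%) at L1. The median difference was 0.0708, and fbxa-75 (2.41), fbxa-182 (2.3), math-15 (2.24) and fbxa-158 (2.0) led. Many of these genes encode adaptors for protein degradation, and close copies can share probe sets. In embryos 37 of the 395 fell, where 4.12% of all genes fell, and 25 rose, close to the 6.23% of all genes that rose. At L1 63 rose and 4 fell, against 8.72% and 6.81% of all genes. The lower 4 were fbxa-3, fbxa-79, fbxa-140 and fbxc-6, named after their values were seen, and there were 7 without embryo replicate 3 of either strain.

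Of 252 nuclear hormone receptor genes 17 were higher (6.75%, against 5.22% of all genes) and 2 lower (nhr-84 and nhr-97; 0.794%, against 4.4%), with a median difference of 0.111. nhr-161, nhr-205, nhr-3 and nhr-206 differed by 1.31, 1.17, 0.96 and 0.91. The higher count was 40 without lin-35(n745) L1 replicate 2, 10 without N2 L1 replicate 3 and 11 without lin-35(n745) embryo replicate 1, and the lower count 8 without lin-35(n745) L1 replicate 1.

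Chemoreceptor genes, which are expressed in few sensory neurons, gave 5 higher and 5 lower of 1212, or 0.413% each way. srw-85 (1.28) and sri-70 (0.85) were the leading higher ones and srd-4 (-0.97) and str-7 (-0.88) the leading lower ones; sri-70 was called in 12 and srd-4 in 15 of 21 alternatives, and srd-4 rose at both stages, by less at L1. With 1 array left out there were 3 to 7 higher and 3 to 8 lower. Of 62 ribosomal protein genes 1 was lower, rpl-11.1 (-0.76), and the median difference was 0.0226.

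By chromosome, the share of genes with a higher strain effect at L1 was 2.59% on the X chromosome, against 4.89% to 6.28% on the autosomes, and the share with a lower one was 6.21% on X, against 3.6% to 4.79% on the autosomes. These shares are descriptions without a test.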
